A study of Mus musculus with 8 samples.

Results

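Histone H3 trimethylated at lysine 36 (H3K36me3) was mapped over the bodies of 10 genes whose proteins read H3K36 methylation. They encode 6 proteins with a PWWP domain (Psip1, Zmynd11, Brpf1, Msh6, Dnmt3a and Dnmt3b), 3 with a Tudor domain (Phf1, Mtf2 and Phf19) and 1 with a chromodomain (Morf4l1). The genes were chosen by the function of their proteins, though with earlier results of these data already known. All 10 were found among the 21853 protein-coding genes of the mouse annotation (GENCODE release M21, build mm10), and each gene body was the span of the longest protein-coding transcript. For comparison, 8255 of the 16344 protein-coding genes with at least 4 exons were called marked, meaning that on average over the 4 libraries at least 10% of the body lay in H3K36me3 peaks. All 10 reader genes met this rule.

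The cells were i4F mouse embryonic fibroblasts (MEFs) from an embryo of day E13.5, in which doxycycline switches on OCT4, SOX2, KLF4 and MYC, the OSKM set of factors used for reprogramming, from an inserted cassette. All 4 conditions shared this cassette and medium for induced pluripotent stem cells, and cells were collected 72 h after the change to that medium. The conditions were no addition (MEF), 2 µM vitamin B12 (MEF B12), 1 µg/ml doxycycline as the labels give it (OSKM), and doxycycline with 2 µM vitamin B12 (OSKM B12). Each condition had 1 H3K36me3 ChIP–seq library and 1 input library, all from MEF 1, which the labels call Clone 1. Differences between conditions thus had no replicate to set them against, no p-value is given, and variation between embryos was not measured.

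SETD2 places H3K36me3 while it travels with elongating RNA polymerase II, so the mark lies over the bodies of transcribed genes and grows towards their 3′ ends. PWWP, Tudor and chromodomain folds hold the methylated lysine in a cage of aromatic residues, and the protein attached to the cage brings an activity to the gene body, such as histone acetylation, DNA methylation, mismatch repair or Polycomb silencing. The readers of the mark are themselves transcribed genes, and the values here concern the mark on their own bodies, not the binding of their proteins.

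The 4 H3K36me3 libraries held between 29046913 and 33399267 tags after filtering. The lists held between 65473 and 69420 peaks, but peaks in OSKM covered 92.8 Mb in all, against 154 Mb in MEF, 166 Mb in MEF B12 and 166 Mb in OSKM B12. The mean peak length was 1417 bases in OSKM and between 2287 and 2478 bases in the other libraries. Of 12 fibroblast marker genes, 10 or 11 were covered over at least 10% of the body in each library, with no peak over Twist1 in any library and none over S100a4 in any but MEF B12. No peak lay over Nanog, Esrrb, Dppa5a, Dppa2 or Lin28a in any library, nor over the epithelial genes Cdh1, Epcam, Krt8 and Krt18, while Zfp42 was covered over 2.42% in OSKM only. Peaks were absent from the leukocyte genes Ptprc and Tyrobp and from the endothelial genes Pecam1 and Cdh5, and Kdr had a peak over 0.903% in OSKM B12 only, whereas Csf1r, the other leukocyte gene, was covered over 12.6% to 33.7%. The OSKM list stood apart over all genes, and a change in the cells, in the number of cells carrying the mark or in the immunoprecipitation of this library cannot be told apart.

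Levels are given in 2 ways. The covered share is the percentage of a gene body that lies in peaks. The density is the scaled pileup, the pileup of H3K36me3 fragments per 1000000 tags, averaged over the whole body with bases outside peaks set to 0. A peak's pileup is the mean over that peak, so the density inside a peak is flat. In MEF the order of density was Brpf1, Morf4l1, Psip1, Phf1, Msh6, Dnmt3a, Mtf2, Phf19, Zmynd11 and Dnmt3b, from 0.641 to 0.0451. Intervals of 95% for counting error, from the estimated number of tags, overlapped between Morf4l1 and Psip1, between Psip1 and Phf1, between Phf1 and Msh6, and between Phf19 and Zmynd11. These intervals leave out variation between cultures and immunoprecipitations. MEF B12 had the same order. In OSKM and OSKM B12 Brpf1 again had the highest density, Phf1 came next, and Dnmt3b again had the lowest. The mean covered share of the 10 genes was 53.9% in MEF and 57.7% in MEF B12, against 36.9% in OSKM and 56.5% in OSKM B12. Over all marked genes it was 51.5%, 54.3%, 35.3% and 54.7% in the same order.

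**Figure D1:**
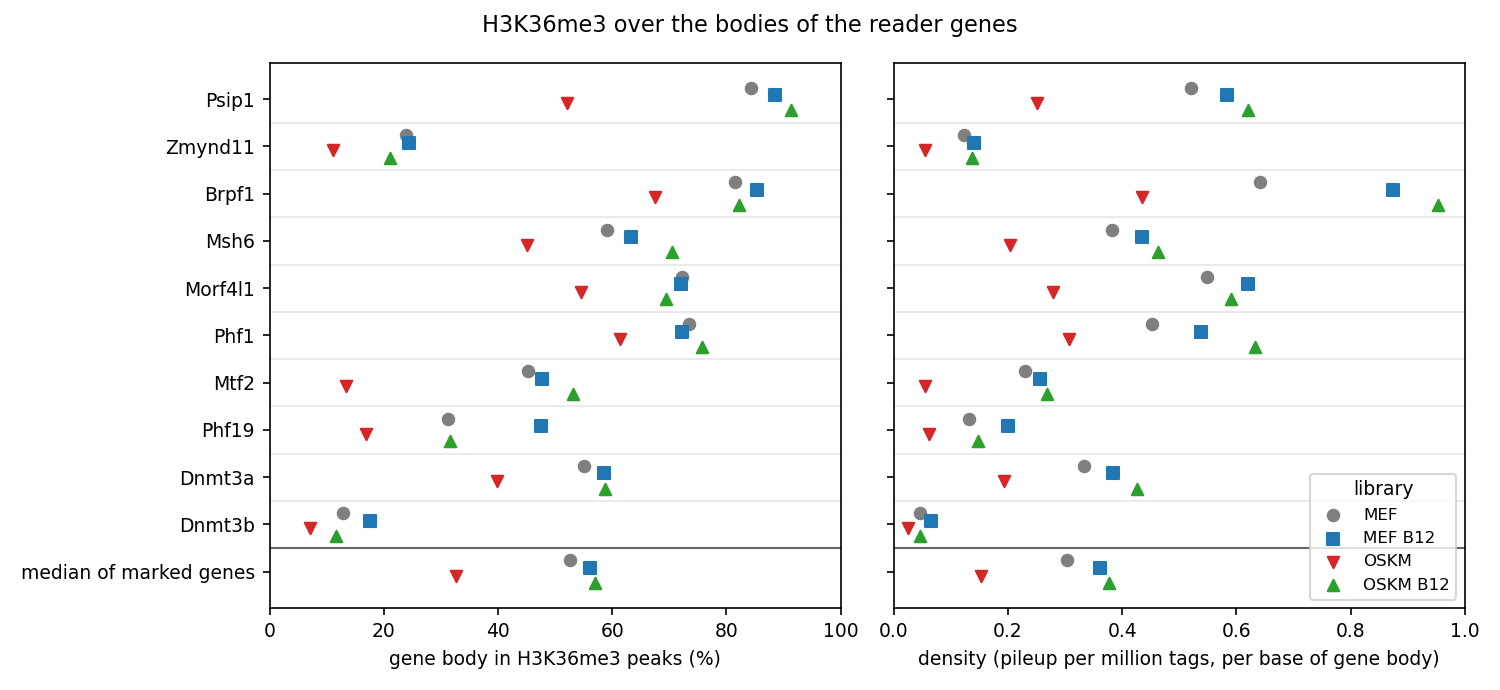
Share of each gene body in H3K36me3 peaks (left, in %) and density (right, scaled pileup averaged over the body) for the 10 reader genes, with 1 point per library, above the median of the 8255 marked genes. For each reader gene the OSKM point lies to the left of the other libraries, and Dnmt3b lies furthest left, with covered shares of 7.12% to 17.5%.

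Every reader gene carried less H3K36me3 in OSKM than in MEF. The covered share was lower for 10 of the 10 genes, as it was for 95.9% of marked genes. All counts by fold and all log2 changes have 0.05 added to both densities, which makes the change of a low gene smaller. Counted this way, density was at least 1.5-fold lower for 7 of the 10 (Psip1, Zmynd11, Msh6, Morf4l1, Mtf2, Phf19 and Dnmt3a), against 71.0% of marked genes. Dnmt3b, with a plain density ratio of 0.547, was past this fold only without the added 0.05. The median log2 change in density was −0.72 over the reader genes and −0.72 over marked genes. As a group the readers thus followed the background. Their median was −1.31 with peaks of −log10 q at least 5 and −0.35 over bases in peaks in all 4 libraries. They ranged from −1.41 for Mtf2 to −0.35 for Dnmt3b. These 2 genes were the only readers outside the 10th to 90th percentiles of marked genes, −1.17 to −0.42.

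With vitamin B12 added to doxycycline, the covered share was higher than in OSKM for 10 of the 10 reader genes, as for 98.1% of marked genes. With 0.05 added, density was at least 1.5-fold higher for 9 of the 10, all but Dnmt3b, against 96.9% of marked genes. The plain density ratio of Dnmt3b was 1.86. The median log2 change was 0.97 over the reader genes and 0.99 over marked genes, and that of the readers was 1.71 with the stricter peaks and 0.62 over shared bases. Again the ends of the range were Mtf2 (1.60) and Dnmt3b (0.36). The changes from MEF to OSKM and from OSKM to OSKM B12 share the OSKM library.

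Without doxycycline, vitamin B12 went with smaller differences. In MEF B12 against MEF no reader gene was 1.5-fold higher in density with 0.05 added, against 2.74% of marked genes, while the plain density ratio of Phf19 was 1.52. The covered share was higher for 8 of the 10, against 71.7%. The median log2 change was 0.17 over the reader genes and 0.21 over marked genes. With pileup not divided by the tags of the library, the median of the readers was 0.028. OSKM B12 against MEF gave a like picture, with no reader gene 1.5-fold higher in density, with or without 0.05 added, against 6.02% of marked genes. Here 7 of the 10 had a higher covered share, against 71.5%, and the medians were 0.21 and 0.26, with 0.089 over the readers when pileup was not divided by tags.

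**Figure D2:**
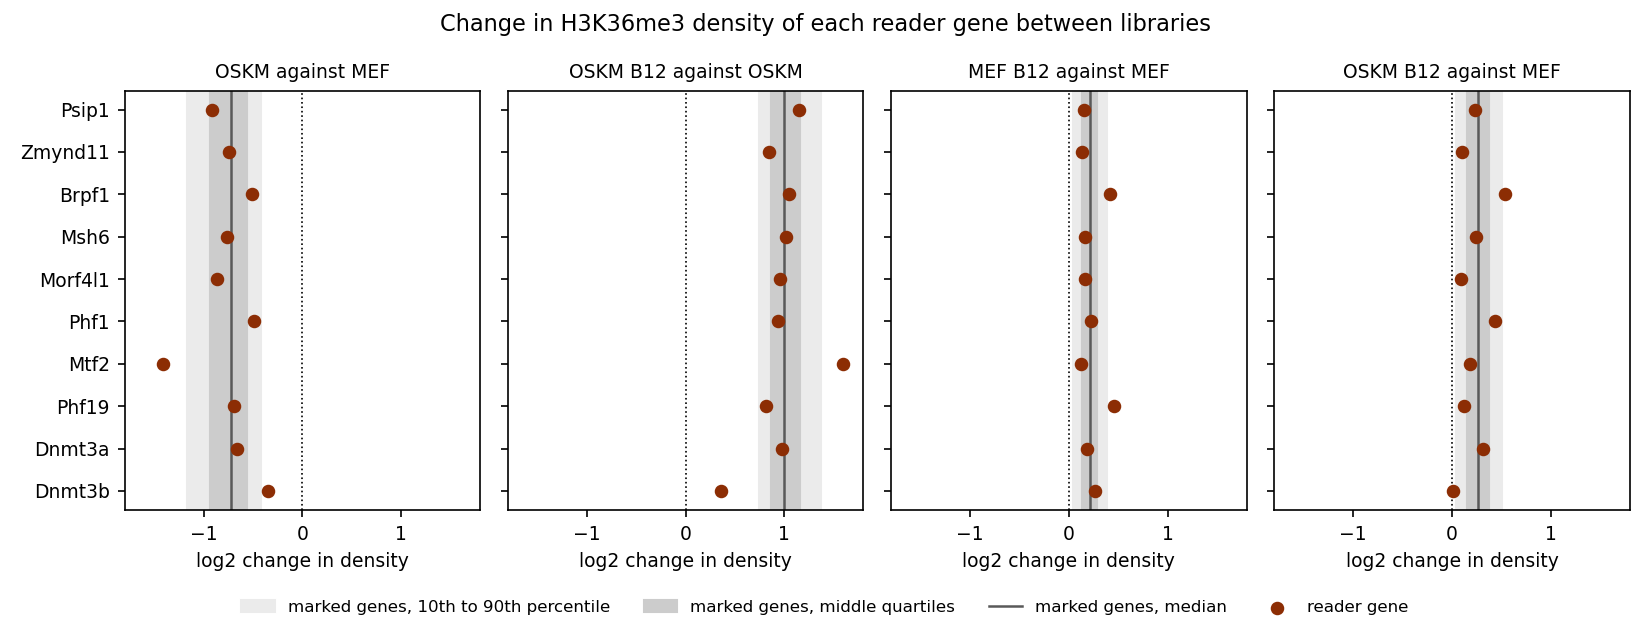
Log2 change in density of each reader gene (points) in the 4 comparisons, beside the median, the middle quartiles and the 10th to 90th percentiles of the 8255 marked genes (line and bands). Most points lie inside the bands, while Mtf2 (−1.41 and 1.60) and Dnmt3b (−0.35 and 0.36) lie outside them on opposite sides in both comparisons that use OSKM.

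The readers tied to transcription and chromatin acetylation are described first. Psip1 encodes LEDGF, a PWWP protein that tethers menin and MLL to chromatin and that lentiviral integrase uses as its docking site. It spans chr4:83455680-83486459 on the minus strand, with 16 exons. Its covered share was 84.3% in MEF and 88.5% in MEF B12, against 52.1% in OSKM and 91.3% in OSKM B12. Density was 0.520, 0.584, 0.252 and 0.620 in the same order. OSKM was the only low library, and the other 3 lay close together. The body was also broken into more pieces. In MEF 4 peaks touched Psip1 and the longest covered 20.97 kb of it, in OSKM 12 peaks touched it and the longest covered 4.12 kb, and in OSKM B12 there were again 4 peaks with a longest piece of 19.7 kb. Of the 9.96 kb of MEF peak bases that were outside peaks in OSKM, 94.9% were in peaks in OSKM B12. Snapc3 overlaps 39.0% of the Psip1 body, and the mark has no strand, so the signal of the 2 genes cannot be told apart there.

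Psip1 makes a long protein, p75, and a short one, p52, and the annotation holds a shorter transcript that ends at base 83461871 in intron 10. The body past that end, 6.19 kb used only by the longer transcript, was covered over 100.0% in MEF and 100.0% in MEF B12, against 67.4% in OSKM and 94.8% in OSKM B12. Before that end the shares were 80.3%, 85.6%, 48.3% and 90.5%. The part past the internal end thus had the higher share in each library. It is also the 3′ end of the body. In marked genes the mean cover in MEF likewise rose, from 13.8% in the first of 5 equal parts to 75.4% in the last. Signal from Snapc3, which overlaps 39.0% of the body, was not separated, so the higher share is not shown to belong to the long form. Exon 14 lies past the internal end. It is the coding exon of Psip1 with the most bases in peaks of the other 3 lists and outside peaks in OSKM. The stretch chr4:83459811-83460110 around it is printed from the GRCm38 reference, on the minus strand, with exon bases in capitals, to show coding sequence that had no peak in OSKM.
Psip1 exon 14: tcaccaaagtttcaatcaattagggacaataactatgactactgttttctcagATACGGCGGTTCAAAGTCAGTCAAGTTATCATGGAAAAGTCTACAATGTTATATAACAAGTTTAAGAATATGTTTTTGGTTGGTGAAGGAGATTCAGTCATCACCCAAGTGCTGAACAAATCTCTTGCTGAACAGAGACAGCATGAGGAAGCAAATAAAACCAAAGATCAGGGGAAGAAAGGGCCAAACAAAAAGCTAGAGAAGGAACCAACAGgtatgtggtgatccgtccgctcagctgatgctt

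Zmynd11 encodes a PWWP protein that reads H3K36me3 on the histone variant H3.3 and restrains elongating RNA polymerase II. It spans chr13:9684833-9765314 on the minus strand, with 15 exons. The covered share was 23.8% in MEF and 24.4% in MEF B12, against 11.1% in OSKM and 21.1% in OSKM B12. Its density was 0.124, 0.141, 0.0538 and 0.136. The low share came with an uneven layout. The first peak began 31.8 kb after the start in MEF, in intron 2, and the last of 5 equal parts of the body was covered over 66.4% in MEF and 42.2% in OSKM. Exon bases were in peaks for 79.7% in MEF and 86.5% in MEF B12, against 38.3% in OSKM and 77.6% in OSKM B12, while intron bases were in peaks for 9.61% to 21.1%. The middle part of the body, in intron 2 and beyond, was covered over 41.7% in MEF and 27.8% in MEF B12, against 8.49% in OSKM and 32.1% in OSKM B12. The highest peak lay at the 3′ end and had a scaled pileup of 0.705 in MEF and 0.807 in MEF B12, against 0.555 in OSKM and 0.914 in OSKM B12. Antisense transcripts Gm36423 and Gm47802 overlap 5.85% and 5.39% of the body.

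Brpf1 encodes the scaffold of the MOZ and MORF acetyltransferase complexes. It spans chr6:113307137-113324857 on the plus strand, with 14 exons. Peaks covered 81.5% of it in MEF and 85.4% in MEF B12, against 67.5% in OSKM and 82.2% in OSKM B12. Its density was 0.641, 0.875, 0.435 and 0.954, the highest among the readers in each library. Brpf1 kept most of its body in peaks. The last 3 of 5 equal parts of the body were covered over 100.0% in all 4 libraries, and 82.8% of its MEF peak bases were also in peaks in OSKM. As in every reader, the 2 libraries with vitamin B12 were both higher in density than the 2 without it. The median density of marked genes did the same, with 0.362 in MEF B12 and 0.377 in OSKM B12 against 0.303 in MEF and 0.152 in OSKM. For Brpf1 the ratio was 1.37 in MEF B12 against MEF (95% counting interval 1.27 to 1.47) and 2.19 in OSKM B12 against OSKM (2.02 to 2.38). The log2 change of 0.42 in MEF B12 against MEF was at percentile 92.1 of marked genes. The antisense gene Gm15492 overlaps 91.4% of the Brpf1 body, so the values belong to the locus and not to Brpf1 alone.

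Msh6 encodes a protein that recognises mismatched bases, and its PWWP domain binds H3K36me3. It spans chr17:87975062-87990892 on the plus strand, with 10 exons. The share of its body in peaks was 59.0% in MEF and 63.4% in MEF B12, against 45.1% in OSKM and 70.4% in OSKM B12. Its density was 0.382, 0.435, 0.204 and 0.462. Most of the peak bases lay in the 3′ part. The peak at the end of the body ran 16.9 kb past it in MEF and 13.0 kb in MEF B12, against 1.79 kb in OSKM and 11.1 kb in OSKM B12, into the neighbouring gene Fbxo11, which overlaps 0.215% of the body. In OSKM this peak thus ended closer to Msh6 than in the other libraries, and OSKM peaks were shorter on average over the whole list. Peaks further on that do not touch the body were not counted, so the mark is not shown to end there.

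Morf4l1 encodes MRG15, the chromodomain reader shared by the TIP60 acetyltransferase complex, the SIN3B deacetylase complex and the methyltransferase ASH1L. It spans chr9:90091665-90114774 on the minus strand, with 12 exons. Its covered share was 72.2% in MEF and 72.0% in MEF B12, against 54.5% in OSKM and 69.4% in OSKM B12. Its density was 0.549, 0.620, 0.280 and 0.590. The main peak stayed long in every library, with 14.5 kb in MEF and 14.5 kb in MEF B12, against 12.2 kb in OSKM and 12.3 kb in OSKM B12, and its height changed. Over the 12.2 kb that lay in peaks in all 4 libraries, the scaled pileup was 0.803 in MEF and 0.902 in MEF B12, against 0.517 in OSKM and 0.941 in OSKM B12. The ratio of OSKM to MEF over these bases, 0.643, was the lowest of the 9 reader genes that have such bases. A smaller share of exon bases than of intron bases of Morf4l1 was in peaks, with 47.0% against 74.4% in MEF and 40.7% against 55.7% in OSKM. A processed pseudogene, Morf4l1-ps1, is annotated, and the alignment kept only reads with a single place in the genome. Its part in the exon values was not tested.

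The 3 Tudor readers, Phf1, Mtf2 and Phf19, are the Polycomb-like proteins that join PRC2, the complex that methylates H3 at lysine 27. Phf1 is the shortest, at chr17:26933052-26937908 on the plus strand, with 15 exons in 4.86 kb. Cover by peaks was 73.4% in MEF and 72.2% in MEF B12, against 61.4% in OSKM and 75.8% in OSKM B12. Density was 0.453, 0.538, 0.307 and 0.632. A single peak lay over Phf1 in each library but OSKM, where 2 peaks left 610 bases between them, from exon 9 to exon 12. Cuta overlaps 84.2% of the Phf1 body, and the signal of both genes is counted together.

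Mtf2 differed most between libraries. It spans chr5:108065742-108109004 on the plus strand, with 15 exons. Peaks covered 45.2% of it in MEF and 47.7% in MEF B12, against 13.4% in OSKM and 53.1% in OSKM B12. Its density was 0.230, 0.256, 0.0554 and 0.268. OSKM was far below the other 3, which lay close together. The log2 change from MEF to OSKM, −1.41, was at percentile 3.85 of marked genes, and that from OSKM to OSKM B12, 1.60, was at percentile 96.0. The ratio of densities was 0.241 in OSKM against MEF (95% counting interval 0.210 to 0.275) and 4.85 in OSKM B12 against OSKM (4.25 to 5.54). In the peak lists the difference was mainly in cover, since 25.2% of the MEF peak bases were in peaks in OSKM. Over the 4.04 kb in peaks in all 4 libraries the pileup ratio was 0.787, close to the median of 0.779 over marked genes. The Mtf2 peaks were of low significance, with a highest −log10 q of 5.30 in MEF and 3.06 in OSKM. A lower height can drop a peak below the cut-off, so lost cover and lower height cannot be told apart. The counting intervals leave out such dropped peaks. Peaks touched 11 of the 15 exons in MEF and 10 in MEF B12, against 2 in OSKM and 12 in OSKM B12. The number of peaks was 14, 14, 7 and 15. Tmed5 overlaps 6.10% of the body.

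The coding exons of Mtf2 show both outcomes. Exon 11 lay in peaks in MEF, MEF B12 and OSKM B12 and outside peaks in OSKM, in a run of 785 bases of that kind. The coding part of the last exon, exon 15, lay in peaks in all 4 libraries. The run counted from its beginning in intron 14 to the last coding base held 652 bases, and it went on past that base. Both stretches are printed from GRCm38 on the plus strand, with exon bases in capitals and intron bases in lower case. The first is chr5:108100748-108101047, with 40.7% G and C and 3 CG pairs, and the second is chr5:108106615-108106914, with 44.7% G and C and 8 CG pairs.
Mtf2 exon 11: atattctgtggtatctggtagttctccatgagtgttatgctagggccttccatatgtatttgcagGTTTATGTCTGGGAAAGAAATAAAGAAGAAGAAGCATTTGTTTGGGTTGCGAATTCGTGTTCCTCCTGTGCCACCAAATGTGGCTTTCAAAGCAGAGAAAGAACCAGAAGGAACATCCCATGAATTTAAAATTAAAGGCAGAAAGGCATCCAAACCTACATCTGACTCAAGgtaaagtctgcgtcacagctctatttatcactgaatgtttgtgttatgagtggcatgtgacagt
Mtf2 exon 15: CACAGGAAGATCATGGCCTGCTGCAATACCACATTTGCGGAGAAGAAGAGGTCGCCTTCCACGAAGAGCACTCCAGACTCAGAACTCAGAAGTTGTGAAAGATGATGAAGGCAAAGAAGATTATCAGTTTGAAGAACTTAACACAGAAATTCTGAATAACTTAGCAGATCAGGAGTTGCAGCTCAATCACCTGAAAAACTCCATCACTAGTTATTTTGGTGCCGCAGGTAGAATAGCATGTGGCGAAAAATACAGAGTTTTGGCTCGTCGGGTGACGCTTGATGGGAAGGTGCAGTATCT

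Phf19 spans chr2:34893757-34913976 on the minus strand, with 15 exons. The covered share was 31.2% in MEF and 47.6% in MEF B12, against 16.9% in OSKM and 31.5% in OSKM B12. Its density was 0.132, 0.1996, 0.0624 and 0.148. Phf19 was the reader with the largest difference with vitamin B12 alone, 16.4 percentage points of cover and a log2 change of 0.46 in MEF B12 against MEF, at percentile 94.0 of marked genes. Its peaks were low, with at most 0.513 scaled pileup, and no peak of Phf19 reached a −log10 q of 5 in any library. Over the 2.25 kb in peaks in all 4 libraries the pileup ratio of MEF B12 to MEF was 0.947. In the peak lists the higher density thus came with wider cover. Pileup is a mean over each peak, and the longest piece was 3.50 kb in MEF B12 and 1.65 kb in MEF. A longer peak can take in lower bases, so wider cover and higher signal cannot be told apart. OSKM B12 was close to MEF in cover, at a difference of 0.267 percentage points.

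**Figure D3:**
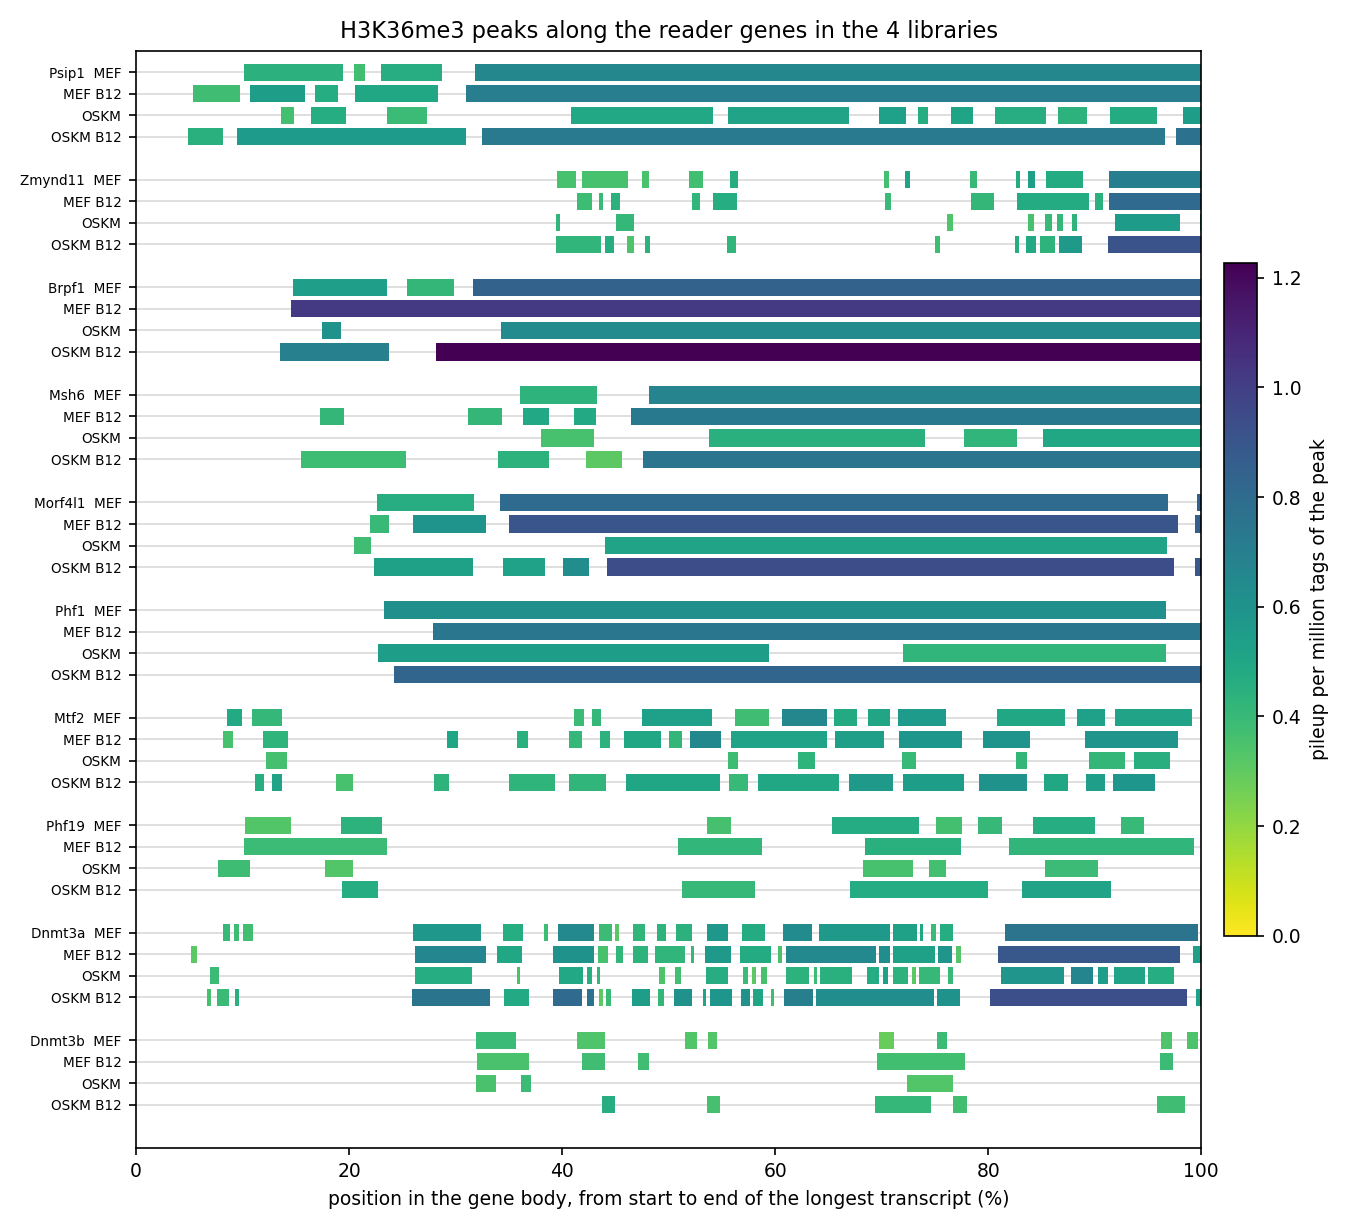
Position of every H3K36me3 peak along the 10 reader genes, from the start (0%) to the end (100%) of the longest transcript, in 4 rows per gene for the 4 libraries, with colour for the scaled pileup of the peak. Long blocks in MEF, MEF B12 and OSKM B12 stand over shorter pieces in OSKM in Psip1, Msh6 and Dnmt3a, while Brpf1 and Morf4l1 keep a long block in OSKM of 11.6 kb and 12.2 kb.

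Dnmt3a and Dnmt3b encode the DNA methyltransferases that set new methylation, and their PWWP domains direct them to H3K36 methylation, di- and trimethylated for DNMT3A and chiefly trimethylated for DNMT3B. Dnmt3a spans chr12:3807030-3914443 on the plus strand, with 23 exons, and is the longest of the readers at 107 kb. Its covered share was 55.1% in MEF and 58.6% in MEF B12, against 39.8% in OSKM and 58.8% in OSKM B12. Its density was 0.333, 0.385, 0.192 and 0.426. Peaks touched 22 of its 23 exons in each library, but the bases held differed. Exon bases were in peaks for 96.1% in MEF and 84.3% in MEF B12, against 65.6% in OSKM and 89.7% in OSKM B12, and intron bases for 51.0%, 56.0%, 37.2% and 55.8%. The longest peak covered 19.5 kb in MEF and 18.4 kb in MEF B12, against 6.37 kb in OSKM and 19.9 kb in OSKM B12. The antisense gene Dnmt3aos overlaps 2.75% of the body.

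Dnmt3a has an internal start that gives the short form DNMT3A2, and in the annotation a shorter transcript begins at base 3891744, in intron 6. From that base on the covered share was 85.9% in MEF and 84.7% in MEF B12, against 67.8% in OSKM and 90.04% in OSKM B12. Before it the shares were 46.8%, 51.5%, 32.2% and 50.5%. The density after the internal start was 0.651, 0.744, 0.381 and 0.829, and before it 0.248, 0.288, 0.142 and 0.318. The part after it, 22.7 kb, is also the 3′ end of the body. Mean cover of marked genes in MEF likewise rose from 13.8% in the first of 5 equal parts to 75.4% in the last. The higher values after the internal start are thus not shown to belong to the short form. The internal start itself lay in a stretch with no peak in every library, 5.27 kb long in MEF and 3.74 kb in MEF B12, against 4.84 kb in OSKM and 3.01 kb in OSKM B12. The 4 stretches share 2.89 kb, which reaches from 1.54 kb before the start to 1.35 kb after it. In each library the highest peak of the gene lay beyond this stretch, with 0.758, 0.893, 0.671 and 0.931 scaled pileup.

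Both starts of Dnmt3a are shown, and no peak lay over either in any library. The starts of the other readers were without peaks too, so this is not particular to Dnmt3a. The sequences are the 250 bases before the start on the plus strand from the RefSeq promoter set on GRCm38.p6. Each CG pair is in capitals, because CG pairs are the sites that DNA methyltransferases modify. The upstream promoter is chr12:3806730-3806979, 1 of 2 overlapping RefSeq promoters there, and the internal promoter is chr12:3891494-3891743. The first holds 38 CG pairs and 82.4% G and C, and the second 15 CG pairs and 73.6% G and C. Of all 32851 RefSeq promoters in the set, 1.88% held at least 38 CG pairs in these 250 bases and 27.3% held at least 15. The search was for the letters CG, which read the same on both strands. RefSeq promoters matched 9 of the 10 readers.
Dnmt3a upstream promoter: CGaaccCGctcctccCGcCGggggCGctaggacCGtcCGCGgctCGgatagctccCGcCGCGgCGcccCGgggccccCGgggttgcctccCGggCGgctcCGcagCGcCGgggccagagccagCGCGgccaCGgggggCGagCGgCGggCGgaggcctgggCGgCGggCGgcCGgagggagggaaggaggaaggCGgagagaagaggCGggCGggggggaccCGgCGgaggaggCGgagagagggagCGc
Dnmt3a internal promoter: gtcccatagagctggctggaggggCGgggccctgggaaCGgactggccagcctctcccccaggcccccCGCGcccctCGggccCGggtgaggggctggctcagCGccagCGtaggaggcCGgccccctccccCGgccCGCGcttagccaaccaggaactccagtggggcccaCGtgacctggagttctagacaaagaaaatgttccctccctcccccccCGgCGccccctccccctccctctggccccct

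**Figure D4:**
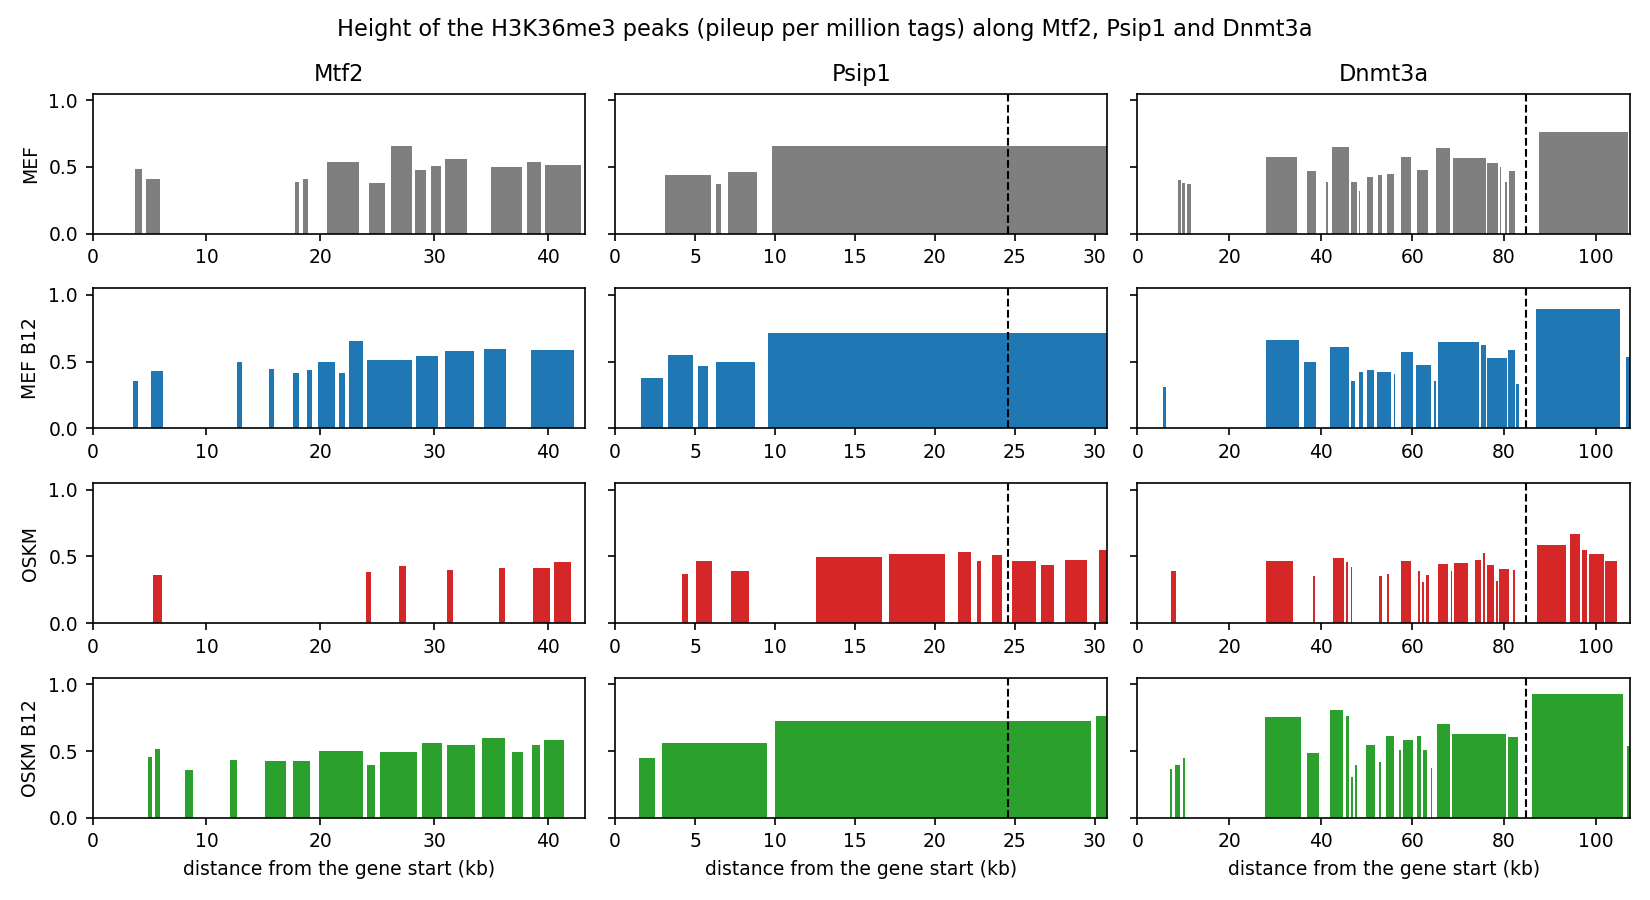
Height of the H3K36me3 peaks (scaled pileup) against the distance from the gene start (kb) in Mtf2, Psip1 and Dnmt3a, with 1 row per library and a dashed line at the internal end of Psip1 and the internal start of Dnmt3a. The dashed line in Dnmt3a falls in a stretch without peaks in all 4 rows, and Mtf2 holds 7 short peaks in OSKM against 14 or 15 peaks in the other libraries.

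Dnmt3b had the lowest density of the readers in each library. It spans chr2:153649450-153687730 on the plus strand, with 23 exons. Peaks covered 12.8% of it in MEF and 17.5% in MEF B12, against 7.12% in OSKM and 11.6% in OSKM B12. Its density was 0.0451, 0.0644, 0.0247 and 0.0460, at percentiles between 0.388 and 8.38 of marked genes. The gene held 8, 5, 3 and 5 short peaks, none with a −log10 q of 5, and no base of it was in peaks in all 4 libraries. In peaks in exactly 3 libraries were 7.64% of its bases, and 21.8% of the MEF peak bases were also in peaks in OSKM. The density ratio was 0.547 in OSKM against MEF (95% counting interval 0.430 to 0.697) and 1.86 in OSKM B12 against OSKM (1.46 to 2.38). The pseudocount makes its log2 changes small, −0.35 and 0.36. Its most significant peak had a −log10 q of 2.88 in MEF and 2.19 in MEF B12, against 2.00 in OSKM and 2.60 in OSKM B12, so Dnmt3b had little enrichment detectable at this depth.

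The mark was unevenly spread along the body. In no library did any reader have a base in a peak between 250 bases before and 50 bases after its start. The same count is not given over marked genes. Their first peak began at a median of 3.78 kb after the start in MEF and 4.88 kb in OSKM. From the start to the end of the body, in 5 equal parts, the mean cover in MEF was 13.0%, 41.6%, 67.1%, 71.0% and 76.6%, and over marked genes 13.8%, 41.3%, 58.2%, 69.0% and 75.4%. Single genes departed from this rise, such as Dnmt3b with 0.0%, 19.0%, 23.0%, 11.3% and 10.6% in MEF and Phf19 with 25.6%, 15.3%, 11.4%, 57.7% and 46.3%. In OSKM the mean over the readers was 7.22%, 19.9%, 46.1%, 51.1% and 60.1%. The OSKM mean was lower in each part of the body, and the first peak began at a median of 5.01 kb after the start in OSKM and 4.46 kb in MEF. In MEF 6 of the 10 had a peak that ran past the end of the body, against 66.2% of marked genes, and in OSKM 5 did, against 44.0%.

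**Figure D5:**
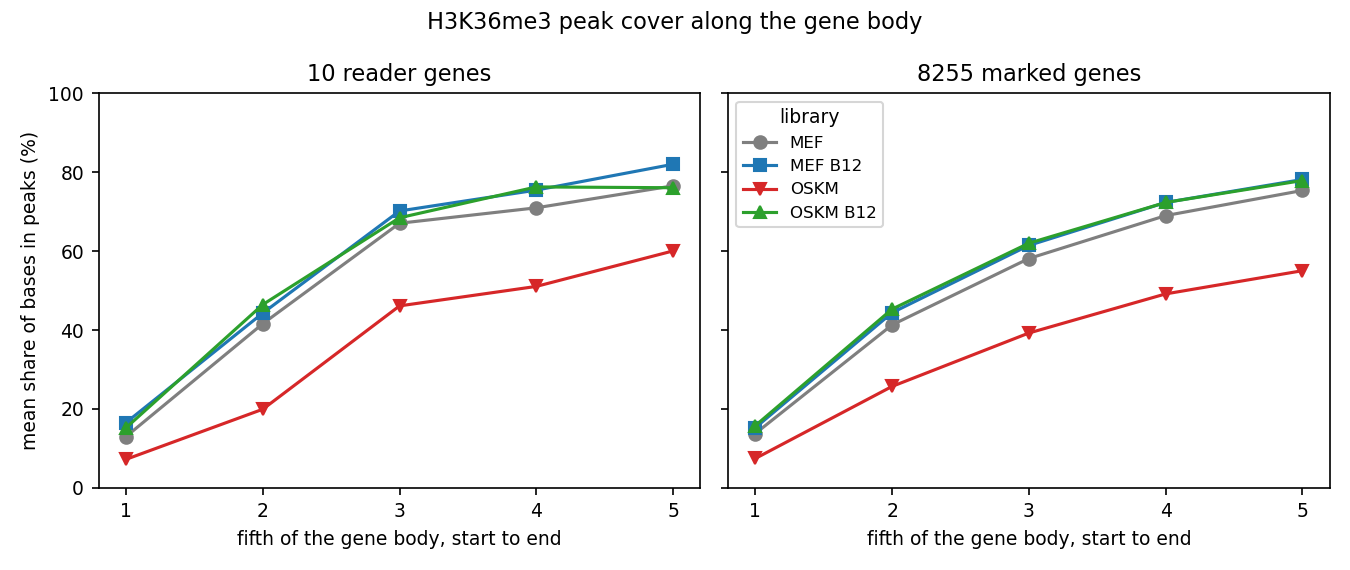
Mean share of bases in H3K36me3 peaks (%) in 5 equal parts of the gene body from start to end, for the 10 reader genes (left) and the 8255 marked genes (right), with 1 line per library. The lines climb towards the end of the gene in both panels, and the OSKM line is the lowest throughout, from 7.22% to 60.1% in the readers.

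The number of peaks that touched the readers hardly differed, with 76 in MEF and 68 in MEF B12, against 73 in OSKM and 73 in OSKM B12. Their size did, since the median over the genes of the longest piece was 7.61 kb in MEF and 7.71 kb in MEF B12, against 3.67 kb in OSKM and 7.69 kb in OSKM B12. Over marked genes this median was 5.80 kb, 6.49 kb, 2.83 kb and 6.31 kb in the same order. Bases in peaks in 3 libraries and not in the fourth were mostly missing in OSKM. In 9 of the 10 genes, between 77.2% and 100.0% of the bases found in exactly 3 lists were missing from OSKM, and the exception was Dnmt3b at 35.3%. This share is not given over marked genes, and the OSKM list covered fewer bases over the whole genome, so it is not shown to be particular to the readers. Between 21.8% (Dnmt3b) and 82.9% (Phf1) of MEF peak bases were in peaks in OSKM, against 58.3% over all bases of marked genes. Of the bases in MEF peaks and not in OSKM peaks, between 35.9% (Dnmt3b) and 100.0% (Msh6 and Phf1) were in peaks in OSKM B12, against 76.8% over marked genes. Where peaks were present in all 4 libraries, the scaled pileup was also lower in OSKM, with ratios to MEF of 0.643 to 0.809 in 9 genes and a median of 0.779 over marked genes.

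Peaks in OSKM were also less significant. With only peaks of −log10 q 5 or more, peaks were found over 8 of the 10 readers in MEF, MEF B12 and OSKM B12 and over 3 in OSKM, which were Brpf1, Morf4l1 and Dnmt3a. The share of marked genes with such a peak is not given here, so this drop is not shown to be particular to the readers. Phf19 and Dnmt3b had none in any library.

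The genes around the readers were also examined as lists, each taken from known partners or relatives. Of 14 other PWWP genes, 11 were marked, and 8 of these were at least 1.5-fold lower in density in OSKM than in MEF, with a median log2 change of −0.72 from −1.003 (Pwwp2a) to −0.26 (Hdgf). Of 16 partners of BRPF1 and MRG15 in acetyltransferase and related complexes, 15 were marked and 10 of these were lower, with a median of −0.67 from −1.26 (Morf4l2, a close relative of Morf4l1) to 0.30 (Mrgbp, a subunit of the TIP60 complex). Of 8 PRC2 genes, 7 were marked and 6 of these were lower, with a median of −0.98 from −1.37 (Rbbp7, a histone-binding subunit) to −0.54 (Ezh1, a catalytic subunit). The share of marked genes past the same fold was 71.0%, with a median of −0.72. From OSKM to OSKM B12 the 3 lists held 11 of 11, 14 of 15 and 7 of 7 genes at least 1.5-fold higher, with medians between 0.93 and 1.15, against 96.9% and 0.99. In MEF B12 against MEF none of the marked genes of the 3 lists was 1.5-fold higher. These counts have 0.05 added as well. Mrgbp was the only marked gene of these lists with a higher density in OSKM than in MEF. Srsf1, a splicing factor that binds p52, had a log2 change of −2.19 from MEF to OSKM and of 1.98 from OSKM to OSKM B12, with a covered share of 72.6% in MEF and 69.1% in MEF B12, against 11.3% in OSKM and 53.1% in OSKM B12.

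The 3 marked genes whose densities over the 4 libraries were closest to the median profile of the readers, by Euclidean distance in log2, were Psmf1 (0.016), Ttll4 (0.039) and Sorbs3 (0.054). Psmf1 had densities of 0.359, 0.406, 0.197 and 0.448 in MEF, MEF B12, OSKM and OSKM B12.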

How the data were processed

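H3K36me3 ChIP–seq and input libraries came from MEF 1 at 72 h, with 1 pair for each of 4 conditions, and groups were taken from the labels. The authors aligned reads with Bowtie version 0.12.9 to mm10, kept uniquely mapped reads, merged the sequencing runs, removed duplicates and ran MACS2 version 2.2.6 in broad mode on each H3K36me3 library against its own input, with q-value cut-offs of 0.05 and 0.1. The labels and methods write the antibody target as H3K3me3, and the library labels as H3K36m3. The labels give doxycycline per ml in µg and the methods in mg.

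The deposited pileup, not scaled by depth, is a signal that averages the extended fragments over a broad peak. The deposited fold enrichment is a ratio of pileup to the input level, and significance is deposited as −log10 p-values and −log10 q-values. Signal outside peaks was not used here.

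Pileup was divided by the tags of the library in units of 1000000, and covered share, density and peak positions were computed per gene body with Python 3.11, numpy 2.4.6 and matplotlib 3.10.9. Log2 changes used a pseudocount of 0.05, which makes changes of low genes smaller. Sharing 1 base counted as touching. Counting intervals of 95% are exact Poisson limits on the estimated tags, and for ratios exact binomial limits, with depths of 29046913 to 33399267 tags. Sums over intervals were checked against counts of single bases on 200 simulated cases, and 0 differed. With 1 library per condition no test was run. All 10 readers are named. Of the further lists, the lowest and highest marked gene by log2 change from MEF to OSKM is named, and the 3 marked genes nearest to the median profile of the readers are named. Of a further list, which holds partners of PSIP1, only the lowest gene is given, and the rest is not reported here. The coding exons and promoters printed were picked by rules chosen after the peaks were seen. The members and lists were chosen with earlier results of these data known. Alternatives changed the peaks counted, the gene body, the scaling, the signal, the pseudocount, the fold, the bases compared and the genes taken as marked.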

Additional observations from a re-analysis of the deposited data

Results flagged for a closer look

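In 2 readers the covered share differed with vitamin B12 in opposite directions without and with doxycycline. In Morf4l1 it was −0.190 percentage points in MEF B12 minus MEF and 14.8 in OSKM B12 minus OSKM. In Phf1 it was −1.24 percentage points in MEF B12 minus MEF and 14.4 in OSKM B12 minus OSKM. Over marked genes the covered share was higher in MEF B12 than in MEF for 71.7%, and in OSKM B12 than in OSKM for 98.1%. The share of marked genes with opposite directions is not given, so the pattern is not shown to be particular to these readers. The density of both genes was higher with vitamin B12 in both settings. With 1 library per condition the difference between the settings was not tested.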

How the results depend on the processing

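The direction of each median log2 change was kept under all alternatives run, and their sizes depended on the settings. For OSKM against MEF the median of −0.72 was −1.31 with peaks of −log10 q at least 5, −0.35 over bases in peaks in all 4 libraries (9 genes), −0.91 with a pseudocount of 0.01 and −0.42 with 0.2. For OSKM B12 against OSKM the median of 0.97 was 1.71 with the stricter peaks, 0.82 with pileup not divided by tags, 0.62 over shared bases and 0.71 with a pseudocount of 0.2. With pileup not divided by tags the medians were 0.028 for MEF B12 against MEF and 0.089 for OSKM B12 against MEF.

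The 7 readers at least 1.5-fold lower in OSKM than in MEF were 1 over shared bases, 3 with a pseudocount of 0.2 and 1 with a fold of 2. The 9 that were higher in OSKM B12 than in OSKM were 4 with a fold of 2 and 6 over shared bases. For MEF B12 against MEF, 0 became 1 with fold enrichment in place of pileup and 2 with a fold threshold below 1.5. For OSKM B12 against MEF, 0 became 1 with the stricter peaks and 2 with the lower fold threshold. The shares of marked genes past the fold under these alternative settings are not given. These changes in count are thus not shown to be particular to the readers. In OSKM the mean covered share of 36.9% was 7.38% with the stricter peaks, against 37.0% to 39.5% in the other libraries.

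Leaving out a library would leave a condition empty. No paired analysis was possible because there was 1 library per condition. Depth sets the smallest enrichment called, and a base outside peaks is not shown to lack the mark.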
